A study of Homo sapiens with 12 samples.

Results

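The genes described here make ribosomes. They encode subunits of RNA polymerase I and the factors that process ribosomal RNA and assemble the small and large ribosomal subunits. They were chosen by symbol from the probe sets that the platform annotation pairs with 1 gene. Chosen symbols begin with NOP, UTP or RRP followed by a number, begin with POLR1, or are one of 14 named genes such as RRS1, WDR12, PES1, FBL and NPM1. The rule found 37 of 14232 genes. By role, 6 are RNA polymerase I subunits, 18 belong to or act with the small subunit processome, 9 act in large subunit assembly, 3 work in small nucleolar ribonucleoproteins, and NPM1 is a nucleolar chaperone with several roles. Each of them had 1 such probe set. No measured change entered the rule, but the rule was chosen with earlier results of these data known.

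The cells were LN229, an established human glioblastoma line, and transcripts were measured on 12 Affymetrix arrays, 3 in each of 4 groups. Every group was seeded, given siRNA after 24 h, placed at its oxygen level after a further 48 h and harvested 16 h after that. One group received control siRNA and 20% oxygen (normoxia), and the other groups were kept at 1% oxygen (hypoxia) with the control siRNA, with HIF1A siRNA or with HIF2A siRNA. The siRNA targets, HIF1A and EPAS1 (the gene for HIF-2A), code for the alpha subunits of the HIF transcription factors, which oxygen makes unstable, and the siRNA groups address which hypoxic changes depend on each. There was no normoxic group with either HIF siRNA, so the effect of the siRNAs without hypoxia was not measured. All results are from 1 cell line, and nothing in the labels says that the arrays of a group came from separate cultures. The p-values therefore reflect the spread between the arrays alone, and that spread may be technical. RNA per cell was not measured, so a lower array value cannot be told apart from a change in total RNA per cell.

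RNA polymerase I works in the nucleolus and makes the long precursor of the ribosomal RNAs. The small subunit processome forms on the front part of that precursor, with the U3 small nucleolar RNA, and prepares the small subunit rRNA. Other factors fold and cut the large subunit rRNA, while box C/D and box H/ACA ribonucleoproteins methylate and pseudouridylate it. Ribosome production is among the most costly programmes of a growing cell, and in tumour cells many of its genes are targets of the transcription factor MYC. MYC with its partner MAX binds the E-box CACGTG, and the HIF factors bind a sequence with the core ACGTG or GCGTG.

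Each siRNA lowered its target. HIF1A was 8.76-fold lower with HIF1A siRNA than with control siRNA in hypoxia (adjusted p = 1.6e-04, limma with Benjamini-Hochberg adjustment), and EPAS1 was 6.04-fold lower with HIF2A siRNA (adjusted p = 3.1e-05). EPAS1 was also 2.79-fold lower with HIF1A siRNA (adjusted p = 3.1e-04). Arrays of a group correlated at r = 0.983 to 0.994. The mesenchymal and glial markers VIM (12.19 on the log2 scale), FN1, S100B, NES and CD44 (9.75) had high mean values, GFAP (6.37) and OLIG2 (6.82) had middle values, and PTPRC (2.45), P2RY12, PECAM1 and EPCAM (2.33), which define microglia, endothelium or epithelium, had low values. Some listed markers of other cell types were not low: CD68 (8.49) of the microglial list, SYT1 (8.39) of the neuronal list, whose other genes lay at 5.34 to 6.96, and the epithelial keratins KRT8 (11.26) and KRT18 (9.55). Their part in the results was not tested. Upper quartiles over all probe sets were 8.47 to 8.57 in normoxia, 8.27 to 8.497 in hypoxia with control siRNA, 7.88 to 8.22 with HIF1A siRNA and 8.24 to 8.44 with HIF2A siRNA. The array with the lowest upper quartile was HIF1A siRNA replicate 3. Because arrays differed in range, each result is given as deposited and after quantile normalization, which gives every array the same distribution.

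Promoters of the genes were searched because both factor families named above read a known short sequence. RefSeq windows on GRCh38.p14, from 250 bases before to 50 after each transcription start, were at hand for 31 of the 37 genes. CACGTG, which reads the same on both strands, was in 12 of 31 (38.7%). Of 27305 genes with a window, 8.8% held it, and so did 11.3% of the 11385 genes that are also on the arrays. ACGTG on either strand, which every CACGTG contains, was in 20 of 31 (64.5%), against 24.9% and 29.3%. GCGTG, the other HIF core named above, was not searched for. Of the 20 genes with the searched HIF core, 12 were the E-box genes already counted. That core without the E-box was in 8 of 31. It was in 4394 of the 27305 genes and in 2052 of the 11385. The excess given for the core therefore includes that of the E-box, and no difference in shares was tested. A match describes the letters in the window and does not show that a factor binds there.

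The sites are shown for 4 of the 5 E-box genes called lower in hypoxia (RRP9, NOP14, UTP25 and UTP4). They are also shown for 3 of the 7 not called lower (FBL, PES1 and NOP10), so that the sequence can be set beside the response. Other matches are not printed, among them that of the E-box gene with the largest fall (log2 change -0.94). Each is read 5′ to 3′ on the strand of its gene, with the E-box in capitals and 12 bases on either side.
RRP9, chr3:51941892-51941921, minus strand: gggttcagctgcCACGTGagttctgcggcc
NOP14, chr4:2963374-2963403, minus strand: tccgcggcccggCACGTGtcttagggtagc
UTP25, chr1:209827974-209828003, plus strand: agtcagcgagccCACGTGcttgtgttgact
UTP4, chr16:69132621-69132650, plus strand: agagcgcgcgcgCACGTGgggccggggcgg
FBL, chr19:39846356-39846385, minus strand: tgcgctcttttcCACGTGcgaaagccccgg
PES1, chr22:30591880-30591909, minus strand: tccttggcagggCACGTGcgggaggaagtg
NOP10, chr15:34343289-34343318, minus strand: gtagggacactcCACGTGttttagcctgca
NOP10, chr15:34343130-34343159, minus strand: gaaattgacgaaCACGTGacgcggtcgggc
Counted from the transcription start, the E-box begins at base -5 in RRP9, -16 in UTP4 and 16 in NOP14. NOP10, a component of box H/ACA particles, has 2 copies, beginning at bases -170 and -11.

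The 250 bases before the start are shown for UTP4, which has the E-box and fell in hypoxia, and for UTP15, a partner of UTP4 in the same subcomplex, which fell and has no CACGTG in its window. Capitals mark the E-box alone. GCGTG occurs in the UTP15 bases and is not marked.
UTP4, chr16:69132399-69132648, plus strand: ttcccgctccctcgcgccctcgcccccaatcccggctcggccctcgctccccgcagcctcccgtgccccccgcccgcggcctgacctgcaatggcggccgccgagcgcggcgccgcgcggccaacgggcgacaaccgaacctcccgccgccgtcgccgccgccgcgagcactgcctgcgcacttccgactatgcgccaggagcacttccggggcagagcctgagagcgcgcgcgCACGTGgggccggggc
UTP15, chr5:73565493-73565742, plus strand: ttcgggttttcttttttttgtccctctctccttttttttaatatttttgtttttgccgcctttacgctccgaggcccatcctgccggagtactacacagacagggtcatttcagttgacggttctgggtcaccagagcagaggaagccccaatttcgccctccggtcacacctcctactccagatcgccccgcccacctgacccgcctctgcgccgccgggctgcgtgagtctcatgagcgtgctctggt
Over all genes 8.95% were called lower in hypoxia. Of the 12 genes with the E-box, 5 were called lower, and their median log2 change was -0.46. Of the 19 without it, 7 were called lower, with a median of -0.52.

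Hypoxia lowered 14 of the 37 ribosome biogenesis genes and raised 0 on the deposited scale (control siRNA in both groups, 3 arrays each, limma, adjusted p under 0.05 over all 14232 genes). That is 37.8% of the genes, where 8.95% of all genes were called lower and 3.37% higher. The 37 genes had higher values than most: 34 had a mean above the all-gene median, and their median level was 8.12 against 6.99. Shares among genes of like level were not computed. The falls were between 1.39-fold for RRP12 and 2.27-fold for RRS1. At an unadjusted p under 0.05, 25 of the 37 genes passed, of which FBL alone was higher, and 3650 of all 14232 genes passed. The median log2 change was -0.52, against -0.03 over all genes. After quantile normalization 15 were lower and 1, FBL, was higher, against 8.43% and 6.65% of all genes, with medians of -0.36 and 0.03. All 14 calls were made on both scales, and RRP1B was lower only after quantile normalization. Over all genes the scale changed the balance of calls: rises were 27.4% of the calls as deposited and 44.1% after quantile normalization. All 3 hypoxic values lay below all 3 normoxic values for 30 of the 37 genes as deposited, where 26.3% of all genes did so, and for 26 after quantile normalization, where 19.8% did.

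With any 1 array of the 2 groups left out, 5 of the 14 genes were called every time: RRS1, WDR12, NOP2, RRP9 and UTP4. Without hypoxia control replicate 2, normoxia replicate 1 or normoxia replicate 3 the count fell to 5. The changes themselves kept their sign and much of their size, from -1.22 to -0.94 for RRP36 and from -1.08 to -0.82 for UTP15. The count was 22 when only these 2 groups were fitted, a fit for which the share over all genes was not computed.

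**Figure D1:**
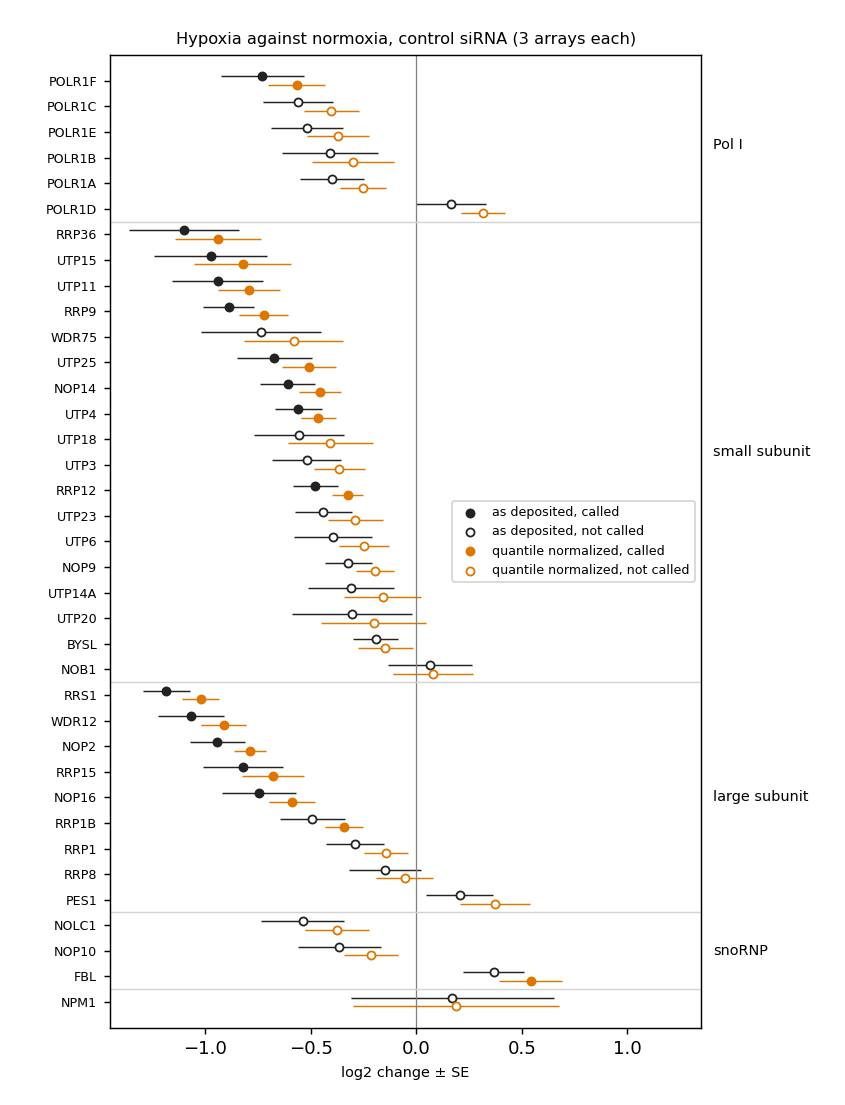
Log2 change between hypoxia and normoxia (control siRNA, 3 arrays per group) for the 37 genes, grouped by role; points are estimates, bars are 1 SE, black is as deposited, orange is quantile normalized, and filled points are called. Of the 37 estimates as deposited, 32 are below 0, and POLR1D, PES1, FBL, NOB1 and NPM1 are not.

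RRS1 had the largest fall of the genes. It helps load the smallest rRNA, with its bound ribosomal proteins, onto the growing large subunit. It measured 8.70, 8.65 and 8.83 in normoxia, 7.64, 7.39 and 7.59 in hypoxia with control siRNA, 8.22, 8.11 and 8.02 with HIF1A siRNA, and 7.88, 7.62 and 7.86 with HIF2A siRNA. All hypoxic arrays were below all normoxic ones, and the HIF1A siRNA arrays stood between, above every other hypoxic array. The fall in hypoxia was 1.18 ± 0.11 on the log2 scale (SE, n = 3 per group, adjusted p = 1.1e-04, limma), 2.27-fold.

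WDR12 and PES1 are partners in the PeBoW complex, which processes the large subunit rRNA precursor, and WDR12 was called lower in hypoxia while PES1 was not. WDR12 measured 9.98, 9.55 and 9.76 in normoxia, 8.75, 8.49 and 8.84 in hypoxia with control siRNA, 9.21, 9.13 and 8.73 with HIF1A siRNA, and 8.92, 8.86 and 9.09 with HIF2A siRNA. PES1 measured 9.79, 9.79 and 9.81 in normoxia, 10.02, 10.07 and 9.92 in hypoxia with control siRNA, 8.85, 9.59 and 9.12 with HIF1A siRNA, and 10.09, 9.80 and 9.87 with HIF2A siRNA. For WDR12 every hypoxic array was below every normoxic array. For PES1 as deposited the hypoxic control arrays were all above the normoxic ones and the HIF1A siRNA arrays were all below them. After quantile normalization PES1 measured 8.97, 9.71 and 9.59 with HIF1A siRNA, which overlapped normoxia (9.55, 9.65 and 9.63). WDR12 fell by 1.06 ± 0.16 in hypoxia (adjusted p = 0.0018, limma), 2.09-fold, while PES1 had a log2 change of 0.21 ± 0.16 that did not pass (adjusted p = 0.51). The difference between the genes was not tested.

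NOP2 methylates a cytosine of the large subunit rRNA. It measured 9.32, 9.32 and 9.37 in normoxia, 8.55, 8.26 and 8.36 in hypoxia with control siRNA, 8.89, 8.85 and 8.47 with HIF1A siRNA, and 8.60, 8.36 and 8.48 with HIF2A siRNA. The normoxic arrays were tightly grouped and above all others. The fall in hypoxia was 0.94 ± 0.13 (adjusted p = 0.0012, limma), 1.92-fold. RRP15 and NOP16, also large subunit factors, were 1.76-fold and 1.68-fold lower.

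Of the 9 large subunit factors, 5 were called lower in hypoxia as deposited, where 8.95% of all genes were. The median log2 change of the 9 was -0.74 as deposited and -0.59 after quantile normalization. RRP1B and RRP1, related large subunit factors, had changes of -0.49 and -0.29 that did not pass on the deposited scale. RRP8, a methyltransferase of the large subunit rRNA that also has a role in silencing rRNA genes, had a change of -0.15. PES1 was the 1 member of the group with a change above 0.

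Among the 18 genes of the small subunit processome, 8 were called lower on each scale and 0 higher. Of all genes 8.95% were lower and 3.37% higher as deposited, and 8.43% and 6.65% after quantile normalization. The median of the 18 was -0.54 as deposited and -0.39 after quantile normalization. RRP36 measured 9.03, 8.89 and 9.08 in normoxia, 8.14, 7.58 and 7.98 in hypoxia with control siRNA, 8.11, 7.81 and 6.93 with HIF1A siRNA, and 7.95, 7.61 and 8.004 with HIF2A siRNA. Normoxic arrays were above all hypoxic ones, and HIF1A siRNA replicate 3 was the lowest of the 12. RRP36, which takes part in early cuts of the precursor, fell by 1.10 ± 0.26 (adjusted p = 0.019, limma), 2.14-fold.

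UTP15 is one of the factors that join the precursor first and also act in rRNA transcription. It measured 8.42, 8.13 and 8.21 in normoxia, 7.504, 6.98 and 7.36 in hypoxia with control siRNA, 7.33, 7.25 and 6.30 with HIF1A siRNA, and 7.499, 7.18 and 7.89 with HIF2A siRNA. The hypoxic arrays were again all below the normoxic ones, with a wide spread among the siRNA arrays. The fall was 0.97 ± 0.27 (adjusted p = 0.037, limma), 1.96-fold, and with any 1 of the 6 arrays of the 2 groups left out it no longer passed, with an adjusted p of up to 0.15. UTP4, of the same subcomplex, was 1.47-fold lower (adjusted p = 0.0093) and was called with each array left out in turn.

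UTP11, a factor bound to the processome, measured 9.95, 9.63 and 9.66 in normoxia, 9.07, 8.54 and 8.82 in hypoxia with control siRNA, 8.999, 8.71 and 8.37 with HIF1A siRNA, and 9.19, 8.86 and 9.61 with HIF2A siRNA. The control siRNA arrays separated fully by oxygen, and HIF2A siRNA replicate 3 came just below the lowest normoxic array. The fall with control siRNA was 0.94 ± 0.22 (adjusted p = 0.017, limma), 1.92-fold. RRP9, a protein of the U3 particle, measured 8.57, 8.56 and 8.64 in normoxia, 7.68, 7.59 and 7.83 in hypoxia with control siRNA, 8.56, 8.20 and 8.17 with HIF1A siRNA, and 8.003, 7.83 and 7.80 with HIF2A siRNA. HIF1A siRNA replicate 1 of RRP9 was at the normoxic level and the other 2 arrays stood between normoxia and the hypoxic control. RRP9 fell in hypoxia by 0.89 ± 0.12 (adjusted p = 0.0012, limma), 1.85-fold.

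The other called members of the processome group were UTP25 (1.59-fold), NOP14 (1.53-fold) and RRP12 (1.39-fold). Changes that did not pass included -0.73 for WDR75, -0.55 for UTP18, -0.52 for UTP3 and -0.44 for UTP23. WDR75 had a larger change than UTP25 but also a larger error (SE 0.28 against 0.18). BYSL and NOB1, which act late, on the cytoplasmic or nearly finished small subunit, had changes of -0.19 and 0.06. NOB1 is the nuclease that makes the last cut of the small subunit rRNA.

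Of the 6 RNA polymerase I subunits, 1 was called lower in hypoxia, where 8.95% of all genes were. It was POLR1F, part of the stalk, with a 1.66-fold fall (adjusted p = 0.033, limma). POLR1F no longer passed with any 1 of the 6 arrays left out (adjusted p up to 0.13). POLR1C, shared with polymerase III, had a change of -0.56 at the threshold (adjusted p = 0.05, not under it), and POLR1E had -0.52 (adjusted p = 0.077).

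POLR1A, the largest catalytic subunit, measured 8.13, 8.14 and 8.21 in normoxia, 7.86, 7.60 and 7.82 in hypoxia with control siRNA, 8.27, 7.88 and 7.75 with HIF1A siRNA, and 7.95, 7.69 and 8.14 with HIF2A siRNA. POLR1B, the second catalytic subunit, measured 7.56, 7.33 and 7.42 in normoxia, 7.25, 6.77 and 7.06 in hypoxia with control siRNA, 7.34, 6.82 and 6.39 with HIF1A siRNA, and 6.97, 6.80 and 7.34 with HIF2A siRNA. In both genes the hypoxic control arrays were all below the normoxic ones, and the siRNA groups overlapped normoxia. The changes in hypoxia were -0.40 ± 0.15 (adjusted p = 0.12) and -0.41 ± 0.23 (adjusted p = 0.3), and neither passed.

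POLR1D, shared with polymerase III like POLR1C, stood apart from the other subunits in sign. It measured 8.47, 8.47 and 8.37 in normoxia, 8.78, 8.51 and 8.52 in hypoxia with control siRNA, 7.95, 8.13 and 7.49 with HIF1A siRNA, and 8.70, 8.30 and 8.56 with HIF2A siRNA. As deposited the hypoxic control arrays were above the normoxic ones and the HIF1A siRNA arrays below them. After quantile normalization POLR1D measured 8.07, 8.27 and 7.92 with HIF1A siRNA, which overlapped normoxia (8.24, 8.34 and 8.19). The change in hypoxia, 0.17 ± 0.17 (adjusted p = 0.63), did not pass.

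FBL, fibrillarin, methylates rRNA in box C/D particles and is a marker of the nucleolus. It measured 9.92, 9.84 and 9.83 in normoxia, 10.27, 10.33 and 10.10 in hypoxia with control siRNA, 9.17, 9.78 and 9.35 with HIF1A siRNA, and 10.26, 10.11 and 10.06 with HIF2A siRNA. As deposited the hypoxic control and HIF2A siRNA arrays were all above normoxia, and the HIF1A siRNA arrays all below it. The change in hypoxia was 0.37 ± 0.14 as deposited (adjusted p = 0.13) and 0.54 ± 0.15 after quantile normalization (adjusted p = 0.031, limma), so FBL rose on the quantile scale only. NOLC1, a chaperone of small nucleolar ribonucleoproteins, and NOP10 had changes of -0.54 and -0.36 that did not pass.

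NPM1, nucleophosmin, a chaperone of ribosomal proteins and histones, had low and scattered values. Its single-symbol probe set measured 3.91, 2.97 and 3.87 in normoxia, 3.31, 3.30 and 4.66 in hypoxia with control siRNA, 3.35, 2.99 and 4.09 with HIF1A siRNA, and 4.20, 3.88 and 2.65 with HIF2A siRNA. All groups overlapped, and every value was below the lower quartile of its array. The change in hypoxia was 0.17 with an SE of 0.48, the largest error of the 37 genes. NCL and DKC1 shared their probe sets with other symbols and were not used here.

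**Figure D2:**
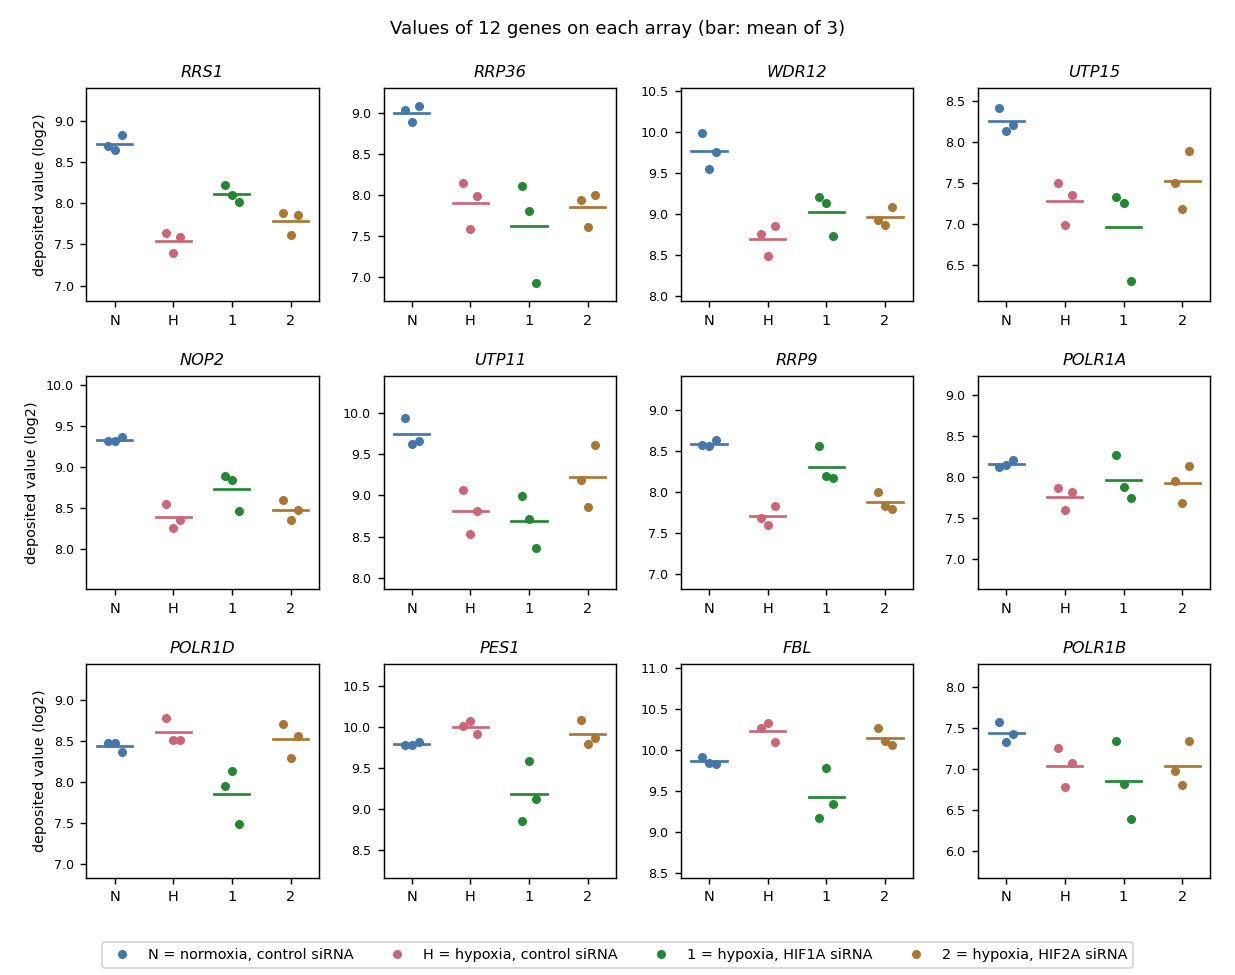
Log2 value on each of the 12 arrays as deposited for 12 of the genes, 1 panel per gene with groups along the horizontal axis; points are arrays, horizontal bars are means of 3, and each panel covers the same span of 2.6 log2 units from its own starting level. FBL, PES1 and POLR1D have hypoxic control points above all normoxic points, and every other panel has them below. The lowest point is with HIF1A siRNA in FBL, PES1 and POLR1D, and also in RRP36, UTP15, UTP11 and POLR1B.

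Genes of the same pathway outside the symbol rule were also called lower in hypoxia. These lists were drawn up with earlier results of these data known and carry no test of their own. Over all genes, 8.95% were called lower and 3.37% higher as deposited. Of 32 other small subunit processome genes measured, 9 were called lower in hypoxia and 0 higher, with a median log2 change of -0.37. LTV1, an export and assembly factor of the small subunit, had a log2 change of -1.17 (adjusted p = 0.0097, limma), and the late-acting kinase RIOK2 of -1.002 (adjusted p = 0.011). Of 30 other large subunit genes, 9 were lower and 0 higher (median -0.39), with MRTO4 at -1.16 and URB2 at -1.04. Of 11 other box C/D and H/ACA proteins, 4 were lower and 1 higher (median -0.49), including SHQ1, an H/ACA assembly chaperone, at -0.85, and TGS1, which modifies the caps of small nucleolar RNAs, at -0.85. Of 12 genes of the RNA exosome and its helpers, which trim rRNA ends, 4 were lower and 0 higher (median -0.42), with EXOSC9 at -1.04 and EXOSC2 at -0.61. After quantile normalization these lists, in the same order, had 9, 10, 4 and 4 genes lower and 1, 1, 1 and 0 higher. Of all genes 8.43% were then lower and 6.65% higher. The list medians on that scale were -0.23, -0.24, -0.37 and -0.29.

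Lists next to the pathway were read in the same way, beside the same 8.95% lower and 3.37% higher over all genes (8.43% and 6.65% after quantile normalization). Of 8 factors that start or end polymerase I transcription, 0 were called as deposited (median -0.14), and 2 were higher after quantile normalization. Among polymerase II subunits 2 of 10 were lower and 1 higher (median -0.29), with POLR2D at -0.80 and POLR2B at -0.59, and among polymerase III subunits 1 of 7 was lower, POLR3K at -0.81. The 25 cytosolic ribosomal proteins with a single-symbol probe set, of 78 listed, had 1 lower (RPL6, -0.72), 1 higher (RPL14, 0.65) and a median of -0.10, which was 0.03 after quantile normalization. No difference between lists was tested.

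**Figure D3:**
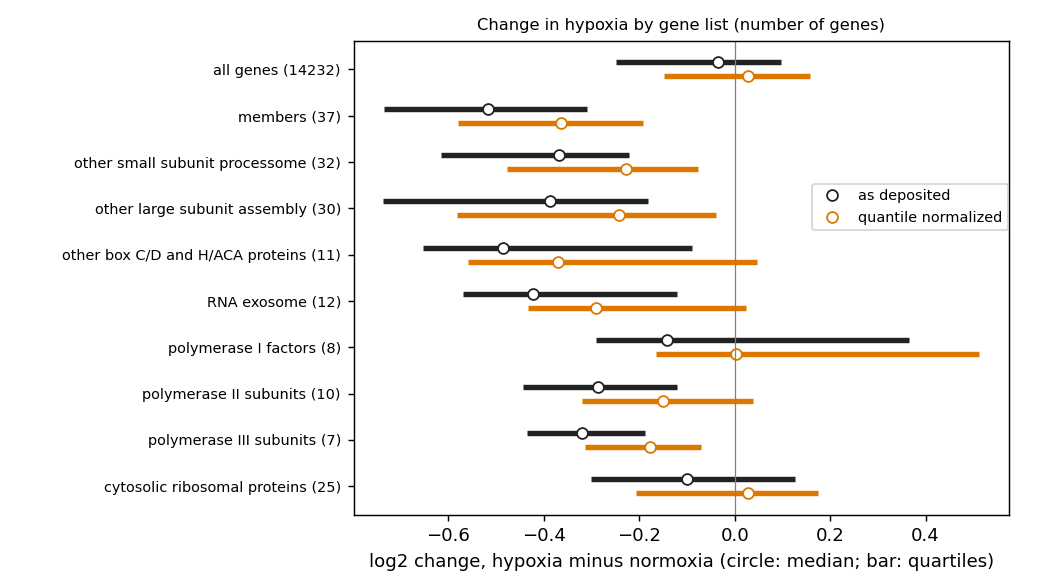
Median log2 change between hypoxia and normoxia (control siRNA) for the 37 genes, the other lists and all 14232 genes, as deposited and quantile normalized; bars span the quartiles over genes, and the 37 genes are named members. They are at -0.52 as deposited, the assembly and exosome lists between -0.37 and -0.49, ribosomal proteins at -0.10 and all genes at -0.03.

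HIF1A siRNA in hypoxia raised 2 of the 37 genes and lowered 3, compared with control siRNA in hypoxia (3 arrays each, limma, as deposited). Lower calls made up 8.1% of the genes, against 10.2% of all genes, and higher calls 5.4% against 0.857%. After quantile normalization 8 were higher and 3 lower, where 5.1% and 7.9% of all genes were. The median change was -0.20 as deposited (all genes -0.05) and 0.07 after quantile normalization (all genes 0.07). As deposited it was -0.04 without HIF1A siRNA replicate 3 and -0.10 without hypoxia control replicate 1. Among all calls the share of rises was 7.8% as deposited, 39.2% after quantile normalization, 31.5% after cyclic loess and 28.6% with arrays centred on their medians.

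The 2 genes that rose were RRP9 and RRS1. This comparison shares the hypoxic control arrays with the one between oxygen levels, where their log2 changes were -0.89 and -1.18. RRP9 was 1.52-fold higher (log2 change 0.61 ± 0.12, adjusted p = 0.012) and RRS1 1.49-fold higher (0.58 ± 0.11, adjusted p = 0.011). On the quantile scale the RRP9 values were 8.69, 8.34 and 8.65 with HIF1A siRNA, 7.57, 7.66 and 7.83 in the hypoxic control and 8.34, 8.43 and 8.45 in normoxia. On that scale the RRP9 arrays with HIF1A siRNA overlapped normoxia and lay wholly above the hypoxic control. RRS1 after quantile normalization measured 8.35, 8.25 and 8.49 with HIF1A siRNA, 7.53, 7.45 and 7.59 in the hypoxic control and 8.46, 8.52 and 8.65 in normoxia. The 6 genes that were higher only after quantile normalization were NOP2 (0.63), WDR12 (0.60), POLR1C (0.53), RRP12 (0.48), POLR1A (0.47) and NOP16 (0.39, all log2).

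The 3 genes that fell with HIF1A siRNA were PES1, FBL and POLR1D, with changes of 0.21, 0.37 and 0.17 in hypoxia against normoxia, which shares the control arrays. PES1 was 1.76-fold lower (-0.81 ± 0.16, adjusted p = 0.012), FBL 1.74-fold lower (-0.80 ± 0.14, adjusted p = 0.0078) and POLR1D 1.68-fold lower (-0.74 ± 0.17, adjusted p = 0.019, limma). The same 3 were called lower after quantile normalization, at -0.56, -0.56 and -0.49. On the quantile scale FBL measured 9.29, 9.90 and 9.79 with HIF1A siRNA, against 10.15, 10.38 and 10.13 in the hypoxic control and 9.68, 9.70 and 9.65 in normoxia. On that scale the HIF1A siRNA arrays stood on both sides of the normoxic ones, with replicate 1 the lowest.

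All 5 calls depended on how the spread was estimated: with only these 2 groups fitted, 0 genes were higher and 0 lower. Without hypoxia control replicate 1, RRS1 and FBL were called, and RRP9, PES1 and POLR1D did not pass (adjusted p up to 0.057, 0.053 and 0.092 with 1 array left out). POLR1D did not pass without HIF1A siRNA replicate 3 either. Quantile normalization without that array, tried after seeing its range, gave 6 higher and 0 lower. EPAS1 was lower in these arrays too (2.79-fold). In the HIF2A siRNA arrays EPAS1 was 6.04-fold lower. There the log2 changes of PES1, FBL and POLR1D were -0.09, -0.09 and -0.08, with SEs of 0.14 to 0.17. Those of RRP9 and RRS1 were 0.18 and 0.24, with SEs of 0.12 and 0.11. None of the 5 passed, and whether lower EPAS1 had a part in the HIF1A siRNA changes was not tested.

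HIF2A siRNA in hypoxia changed 0 of the 37 genes relative to control siRNA on either scale (limma). At an unadjusted p under 0.05, 0 of the 37 genes passed as deposited, where 502 of all genes did. After quantile normalization 3 of the 37 passed, and the count over all genes was not computed on that scale. Over all genes 0.00703% were called as deposited and 0.0281% after quantile normalization. Log2 changes ran from -0.18 for NPM1 to 0.42 for UTP11, with SEs of 0.11 to 0.48 and a median change of 0.01. A p that misses the threshold does not show that the groups were alike. RRS1 had a change of 0.24 ± 0.11 and FBL of -0.09 ± 0.14.

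**Figure D4:**
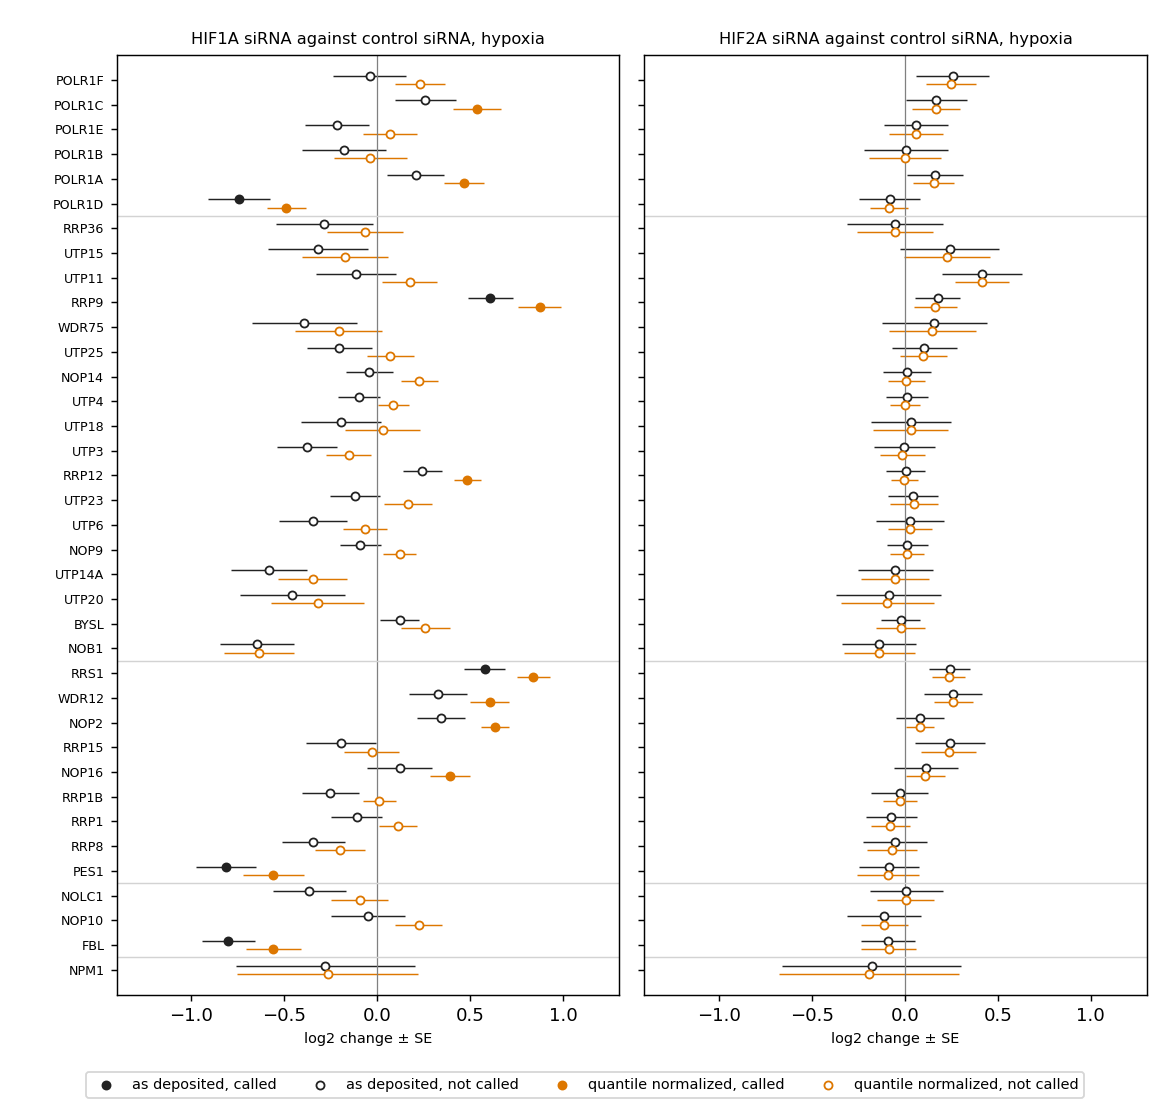
Log2 change with HIF1A siRNA (left) and HIF2A siRNA (right) against control siRNA in hypoxia, 3 arrays per group, for the 37 genes in the order of the hypoxia plot; bars are 1 SE, black is as deposited, orange is quantile normalized, and filled points are called. With HIF1A siRNA 5 points are filled as deposited and 11 after quantile normalization, and with HIF2A siRNA 0 are.

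Both siRNA groups were also set against normoxia. These comparisons share the normoxic arrays with the hypoxia comparison, so each is given by its own values. With HIF1A siRNA 28 of 37 genes were lower as deposited (75.7%) and 0 higher, where 30.4% of all genes were lower. After quantile normalization 12 were lower (32.4%), where 14.6% of all genes were. The median change was -0.63 as deposited, where that of all genes was -0.12, and -0.30 after quantile normalization, where that of all genes was 0.08. At an unadjusted p under 0.05, 31 of the 37 genes passed as deposited, and 6752 of all 14232 genes passed. Without normoxia replicate 1 the count was 18.

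RRP36, UTP15 and UTP11 were lower than in normoxia with HIF1A siRNA on both scales, by 1.38, 1.29 and 1.06 as deposited and by 1.01, 0.99 and 0.62 after quantile normalization. RRS1 and NOP2 were lower as deposited, at -0.61 and -0.60, and did not pass after quantile normalization, at -0.18 and -0.16. RRP9 did not pass on either scale, at -0.28 and 0.15.

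With HIF2A siRNA 9 genes were lower than in normoxia as deposited (24.3%) and 0 higher, where 6.79% of all genes were lower. After quantile normalization 10 were lower (27.0%), where 6.34% of all genes were. The medians were -0.47 and -0.32. As deposited the count was 4 without HIF2A siRNA replicate 2 or normoxia replicate 1 and 5 without normoxia replicate 3. It was 19 when only these 2 groups were fitted. Shares over all genes were not computed for these refits. At an unadjusted p under 0.05 in the main fit, 24 of the 37 genes passed as deposited, and 3308 of all 14232 genes passed. RRP36, RRS1, NOP2, WDR12 and RRP9 were lower by 1.15, 0.94, 0.86, 0.81 and 0.71, while UTP15 (-0.73) and UTP11 (-0.53) did not pass.

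The 2 siRNA groups were compared directly, which tests the difference between them. With HIF1A siRNA PES1, FBL and POLR1D were lower than with HIF2A siRNA and RRP9 was higher as deposited, so 3 genes were lower (8.1%, against 8.53% of all genes) and 1 higher (2.7%, against 0.899%). The log2 differences were -0.73 for PES1, -0.71 for FBL, -0.66 for POLR1D and 0.43 for RRP9, with adjusted p from 0.016 to 0.049 (limma). After quantile normalization POLR1D alone was lower (6.89% of all genes were), and RRS1, NOP2, RRP9 and RRP12 were higher (5.61% of all genes were). With only these 2 groups fitted 0 genes were called in either direction, and without HIF1A siRNA replicate 3, or without HIF2A siRNA replicate 1, 0 were called.

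The middle of the 37 genes on each array summarises the pattern without a test. The median over the 37 genes was 8.70, 8.56 and 8.69 in normoxia, 8.23, 7.92 and 8.002 in hypoxia with control siRNA, 8.11, 8.13 and 7.75 with HIF1A siRNA, and 8.06, 7.90 and 8.23 with HIF2A siRNA. After quantile normalization it was 8.46, 8.43 and 8.51 in normoxia, 8.08, 7.98 and 7.998 in hypoxia with control siRNA, 8.23, 8.27 and 8.21 with HIF1A siRNA, and 7.97, 8.001 and 8.12 with HIF2A siRNA. On both scales all 9 hypoxic arrays were below the normoxic ones. After quantile normalization the HIF1A siRNA arrays were above the other hypoxic arrays; as deposited they overlapped them, with replicate 3 the lowest of the 12.

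**Figure D5:**
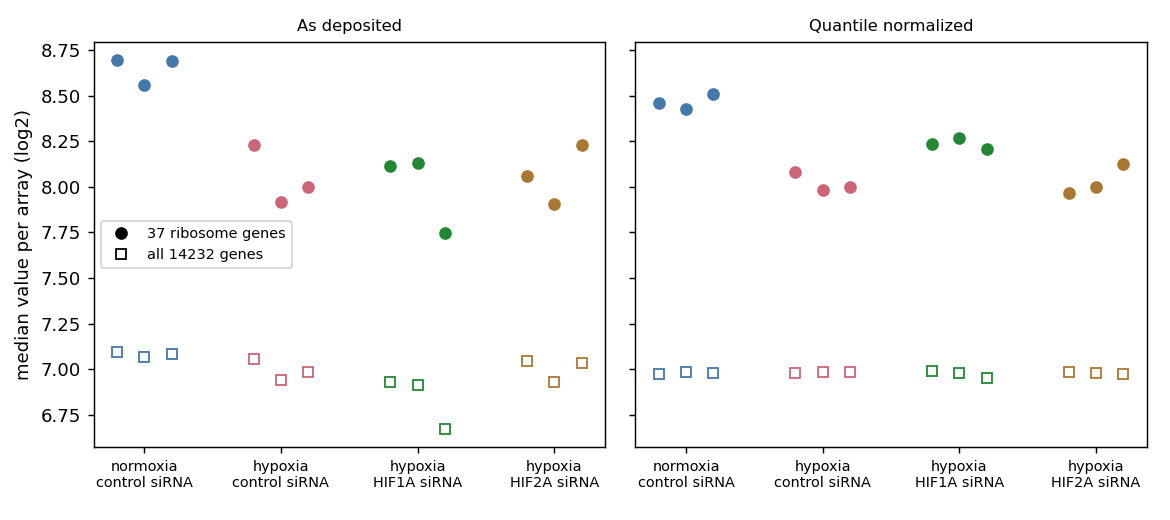
Median log2 value of the 37 genes on each of the 12 arrays, as deposited and quantile normalized; circles are the 37 genes and open squares all genes, with arrays grouped by condition. For the 37 genes, normoxic arrays lie at 8.56 to 8.70 as deposited and 8.43 to 8.51 after quantile normalization, above every hypoxic array on the same scale.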

How the data were processed

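The deposited values are on a log2 scale, with 1 value per probe set and array, for 22011 probe sets on 12 arrays. The log scale was read from the values (1.14 to 14.27) and base 2 was inferred. The submitters' processing notes name Partek and hg18; how background was corrected and arrays were normalized is not stated in the sources used here. The number of arrays limits the precision.

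The platform annotation gives 14432 probe sets 1 symbol, 2408 several and 5171 none here. IDs of 14404 were found in RefSeq. For each of 14232 genes the brightest single-symbol probe set was used. Of the 14 named symbols 9 were found this way. Another 10 symbols that meet the rule, NCL and DKC1 among them, lie only on probe sets with several symbols and were not used. WDR43, BOP1 and GNL3 were not analysed here.

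Group means were fitted over all 12 arrays with limma 3.58.1 (lmFit, eBayes) in R 4.3.3, and Benjamini-Hochberg adjusted p-values were taken over 14232 genes. The scripts were tested on simulated data. Tables were read with data.table (release 1.17.8), and plots used matplotlib 3.10.9. Genes given by array were the 6 called genes with the largest fall and the 3 with the largest rise per comparison (hypoxia, and each siRNA against control), POLR1A, POLR1B, FBL and NPM1. From each other list up to 2 called genes with the largest change in hypoxia were named. Genes, lists and rules were chosen with earlier results of these data known.

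Alternatives were quantile normalization, cyclic loess, median centring, a filter at the 25th percentile, a trended variance, the mean of a gene's probe sets, fits of 2 groups, a replicate block and leaving out each array.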

Additional observations from a re-analysis of the deposited data

How the results depend on the processing

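Of the recomputed counts and medians over the 37 genes, 168 stayed within a tolerance and 58 did not; the tolerance was 1.5 times the reported count, or 1 SD between replicate arrays for a median. The low-value filter, the trended variance and the mean of probe sets stayed within it, with 16, 15 and 18 genes lower in hypoxia. The mean of probe sets left the values of the 37 genes unchanged, because each had 1 single-symbol probe set. It was fitted to the averaged genes alone, where the main fit used all 22011 probe sets. The cause of the differing counts was not tested. All 14 genes lowered by hypoxia were called under the 8 settings that kept all of these arrays.

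Scaling moved the following. Quantile normalization and cyclic loess gave, for hypoxia, 1 and 2 genes higher and medians of -0.36 and -0.35. For HIF1A siRNA against control they gave 8 and 8 higher and medians of 0.068 and 0.043, where 726 and 545 of all genes were higher. For HIF1A siRNA against normoxia they gave 12 and 11 lower and medians of -0.30 and -0.30. Of all genes, 2082 and 2216 were lower there. The HIF2A siRNA median against normoxia was -0.32 and -0.32, and the direct comparison of the siRNAs had 4 higher and 1 lower under both. In that comparison 799 and 530 of all genes were higher, and 981 and 1019 lower. Median centring gave 5 higher for HIF1A siRNA and 4 higher in the direct comparison, where 509 and 654 of all genes were higher. It gave a median of -0.002 for HIF2A siRNA and of -0.45 for HIF1A siRNA against normoxia.

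Fitting only the 2 groups compared gave 22 lower and 1 higher in hypoxia, 0 and 0 for HIF1A siRNA, 0 and 0 in the direct comparison and 19 lower for HIF2A siRNA against normoxia. With the replicate number as a block, the direct comparison had 0 higher, and 15 genes were lower in hypoxia, 27 with HIF1A siRNA and 8 with HIF2A siRNA against normoxia; medians were not recomputed. Same-numbered arrays deviated together (r over 0.1) in 6 of 18 pairings (-0.49 to 0.60). Between normoxia and the hypoxic control r was 0.466, 0.368 and 0.098 for replicates 1, 2 and 3. Arrays of different numbers were not compared in this way. The main fit had no block because nothing in the labels says that a number marks a shared culture or day. Quantile normalization without HIF1A siRNA replicate 3, chosen after seeing the data, gave 6 higher, 0 lower and a median of 0.12 for HIF1A siRNA, 5 lower and a median of -0.26 against normoxia, and 4 higher and 0 lower in the direct comparison; RRP1 then reversed against normoxia, at 0.051 (adjusted p = 0.75, limma).

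With each array left out in turn, genes lower in hypoxia numbered 5 to 12. For HIF1A siRNA 1 to 3 were higher and 1 to 7 lower, and the NOP16 change ran from -0.023 (without HIF1A siRNA replicate 1) to 0.316. In the direct comparison 0 to 1 were higher and 0 to 8 lower. Against normoxia 18 to 28 were lower with HIF1A siRNA and 4 to 8 with HIF2A siRNA. The HIF1A siRNA median against control ran from -0.255 to -0.039. The HIF2A siRNA median ran from -0.043 to 0.106. Shares over all genes were not computed with an array left out or for fits of 2 groups only. Nor were they computed for the block, the filter, the trended variance or the mean of probe sets.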
